A study of Mus musculus with 22 samples.

Results

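The genes described here are 7 subunits of the GABA-A receptor, Gabra2, Gabra3, Gabra4, Gabra5, Gabrb1, Gabrb2 and Gabrd, picked by name as main cortical subunits from the 37786 genes of a count table of the anterior cingulate cortex (ACC). All 7 were found in 1 row each, and all 7 passed the count minimum (10 or more counts in 10 or more mice), as did 17524 genes in all. The table holds 22 bulk tissue libraries, 1 per mouse, from wildtype male C57BL/6J mice that were 8 weeks old at the start of the study. Both groups had received an adeno-associated virus that carries channelrhodopsin-2 fused to EYFP under the CaMKIIa promoter in the basolateral amygdala (BLA) on both sides, and an optic fibre in the ACC on 1 side. In the 10 stimulated mice blue light was given through the fibre in 9 sessions. In the 12 controls the light stayed off. The CaMKIIa promoter drives expression mainly in excitatory neurons, so light in the ACC reached terminals of amygdala neurons, while the tissue sequenced was the ACC of both sides, taken 2 days after the last session. It therefore held the side without a fibre as well, and all its cell types together. The comparison asks which transcripts of the ACC differ after repeated activation of this pathway, here for the receptor that carries fast inhibition.

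GABA-A receptors are chloride channels made of 5 subunits around a central pore, and they open when GABA binds. The alpha subunit in the receptor sets much of its kinetics and its place in the membrane: receptors with Gabra2 and Gabra3 are found at synapses, whereas Gabra5 and Gabra4 are known from receptors outside the synapse, the latter often with the delta subunit Gabrd. Beta subunits such as Gabrb1 and Gabrb2 take part in the GABA binding site and in anchoring and traffic of the receptor. In a bulk sample, fewer cells that express a subunit and less of its RNA per cell cannot be told apart.

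Total counts per mouse ranged from 23090483 to 43668462 (median 32560084). The libraries are numbered from 1 to 23 in the labels, and a library numbered 7 is not analysed here. Numbers 1 to 11 (6 controls, 4 stimulated mice) and 12 to 23 (6 and 6) are called sets here. The study used 2 batches of animals, but the labels do not say that these sets are the batches. The sets stood apart: 68.1% of all genes differed between them at an adjusted p under 0.05 by edgeR's quasi-likelihood test, so the set was a term of the comparison between groups and the members' results are also given within the sets. Markers of cortical excitatory neurons were present in every mouse, such as Slc17a7, the vesicular glutamate transporter, at 1137 to 2963 CPM (the share of a library's counts on a per-1000000 scale, after TMM scaling), and 5 striatal markers summed to 84.2 to 151 CPM, most of it Ppp1r1b (48.4 to 99.0), with the receptor genes Drd1 at 11.3 to 26.5 and Adora2a at 1.97 to 5.15. Controls 9 and 11, both of set 12 to 23, had a summed level of 8 oligodendrocyte markers of 19639 and 14451 CPM, against 2337 to 6272 in the other 20 mice. For some of the fits, shares and correlations of the members, values without these libraries are given as well.

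Gabra2, Gabra4 and Gabrb1 lie together on chromosome 5 of GRCm38, with Gabra2 (ENSMUSG00000000560) at chr5:70957597-71095849 and Gabra4 (ENSMUSG00000029211) at chr5:71569749-71658308 on the minus strand, and Gabrb1 (ENSMUSG00000029212) at chr5:71658113-72149037 on the plus strand. Gabra4 and Gabrb1 start head to head and overlap by 196 bases, of which 46 are exonic in both. The library kit does not mark strand, so reads in those bases could not be given to 1 of the 2 genes. Gabra3 (ENSMUSG00000031343) lies at chrX:72432681-72656848, Gabra5 (ENSMUSG00000055078) at chr7:57407672-57510059 and Gabrd (ENSMUSG00000029054) at chr4:155384980-155398112, all on the minus strand, and Gabrb2 (ENSMUSG00000007653) at chr11:42419757-42629028 on the plus strand. Gabra5 shares 148 exonic bases with the antisense gene Gm9962, which had at most 102 counts in any mouse. The bases just before the RefSeq start site are shown for Gabra2 and Gabrb2, the genes that moved most with group within a set and with set, from the RefSeq table of GRCm38.p6, at chr5:71095850-71096099 (minus strand) and chr11:42420190-42420439 (plus strand, the first of 3 start sites listed). The RefSeq start of Gabrb2 lies inside the gene span given above, which begins further upstream, so the Gabrb2 stretch is upstream by the RefSeq start only. Capitals mark GGGCGG on either strand, the core that Sp1 binds, and TATAAA on either strand. These motifs do not overlap each other.
Gabra2: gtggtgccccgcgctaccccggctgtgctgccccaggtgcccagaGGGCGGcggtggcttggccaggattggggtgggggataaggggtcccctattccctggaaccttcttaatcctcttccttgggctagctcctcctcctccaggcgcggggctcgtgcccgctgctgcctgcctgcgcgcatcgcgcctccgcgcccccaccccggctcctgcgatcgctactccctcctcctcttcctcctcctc
Gabrb2: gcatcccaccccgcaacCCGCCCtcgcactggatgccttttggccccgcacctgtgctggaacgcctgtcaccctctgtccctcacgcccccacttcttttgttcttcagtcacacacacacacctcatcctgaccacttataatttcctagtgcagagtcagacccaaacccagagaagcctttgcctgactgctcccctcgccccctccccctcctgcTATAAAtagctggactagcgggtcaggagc
The Gabra2 stretch was 70.0% G or C and held 1 GGGCGG and 0 TATAAA. The Gabrb2 stretch was 58.8% G or C and held 1 of each, with TATAAA starting 30 bases before the start site. Of the 32851 stretches of 250 bases in the table, 32.7% held GGGCGG and 12.4% held TATAAA, with a median of 52.4% G or C.

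Per length of all exons, Gabra5 had the highest and Gabra2 the lowest level of the 7 genes. Counts grow with transcript length, so CPM were divided by the kilobases of all annotated exons of the gene. Gabra5 stood at 37.7 ± 4.87 CPM per kilobase (SD, n = 22 mice, as for the next values), Gabrd at 30.6 ± 4.52, Gabra4 at 30.2 ± 6.02 and Gabra3 at 27.7 ± 5.99. Below these were Gabrb2 at 18.2 ± 7.67, Gabrb1 at 12.3 ± 1.49 and Gabra2 at 9.06 ± 1.60. Neighbours in this order were often not separated. Gabra5 was above Gabrd in 17 of 22 mice and Gabrd above Gabra4 in 12 of 22, which came to 10 of 10 mice in set 1 to 11 and 2 of 12 in set 12 to 23. Gabra4 was above Gabra3 in 17 mice, Gabra3 above Gabrb2 in 21 and Gabrb1 above Gabra2 in all 22. Gabrb2 was above Gabrb1 in 2 of 10 mice of set 1 to 11 and in 12 of 12 of set 12 to 23. The order also rests on the length that is chosen, since Gabrb1 has 13838 exonic bases but only 1422 coding ones. Per kilobase of the longest transcript Gabra4 came first, at 44.7 ± 8.91, ahead of Gabra5 at 42.0 ± 5.43 in the mean over all mice, but it was the higher in only 2 of 10 mice of set 1 to 11 and in 10 of 12 of set 12 to 23. Per kilobase of coding sequence Gabrb1 came first over all mice, at 119.8 ± 14.5, while Gabra2 was last at 51.2 ± 9.05, as with the longest transcript (11.8 ± 2.09). These ends of the order also moved with the set. In set 12 to 23 the mean of Gabra4 per coding kilobase, 118.6, was above that of Gabrb1, 114.1, and Gabra2 per kilobase of the longest transcript, at 12.4, was above Gabrb1, at 11.8. In set 1 to 11 Gabrb2 per coding kilobase, at 44.4, was below Gabra2, at 48.2.

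**Figure D1:**
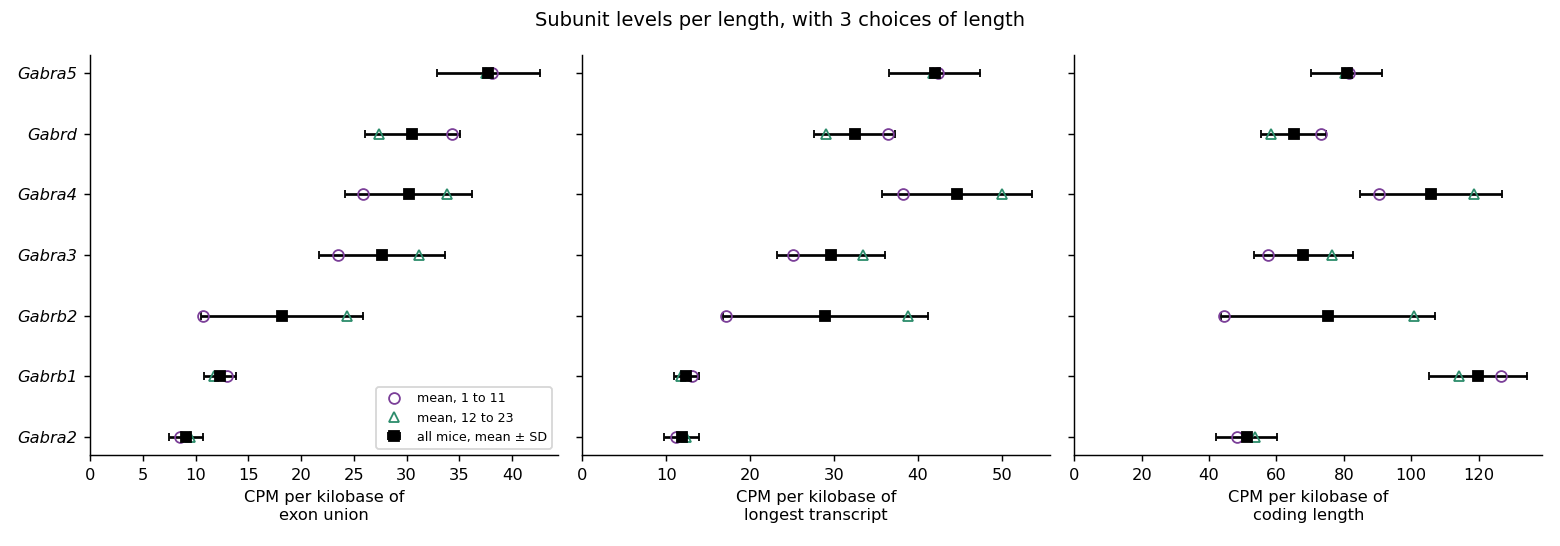
Level of each subunit in CPM per kilobase (horizontal, linear from 0), with the union of exons, the longest transcript and the coding sequence as length. Squares and bars are the mean ± SD over 22 mice, open circles and triangles the means of library numbers 1 to 11 and 12 to 23. In the means over all mice Gabra2 is lowest under all 3 lengths and Gabrb1 moves from near the bottom with the exon union to the top with the coding length, an order that the set means do not keep throughout, and the set means of Gabrb2 lie far apart.

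Between stimulated and control mice 0 of the 7 subunits passed the test. With set as a term, 0 of 7 had an adjusted p under 0.05 (0.0% of all genes did) and 0 of 7 an unadjusted p under 0.05, against 11.5% of all genes (edgeR quasi-likelihood test, Benjamini-Hochberg adjustment). The log2 fold changes of the members were between -0.05 and 0.12. They were above 0 in 6 of 7 members and in 52.6% of all genes, and the median over the members was 0.06, beside 0.01 over all genes tested. With controls 9 and 11 left out, 4 of 7 were above 0 and the median was 0.01. In that fit 50.8% of all genes were below 0, with a median of -0.003.

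Of the alpha subunits of synaptic receptors, Gabra2 had 46.8, 70.7 and 87.1 CPM in controls (lowest, median, highest) and 49.6, 75.9 and 86.3 CPM in stimulated mice. These ranges lie over each other almost in full. Its log2 fold change was 0.00 with a standard error of 0.11 (adjusted p = 0.999), and its values within the sets, of opposite sign, are described below. Gabra3, the alpha subunit also prominent in monoaminergic cell groups and deep cortex, had 76.1, 98.4 and 129 CPM in controls and 78.7, 121 and 160.4 in stimulated mice. Of the 10 stimulated mice 5 lay above the highest control and 5 within the range of the controls, and the log2 fold change was 0.12 with a standard error of 0.09 (adjusted p = 0.623).

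For the subunits of extrasynaptic receptors, Gabra4 had 139, 166 and 246 CPM in controls and 134, 190.1 and 244 in stimulated mice. Its log2 fold change of 0.06 was smaller than its standard error of 0.09 (adjusted p = 0.825). Gabra5, which carries tonic inhibition of pyramidal cells, had 76.4, 111 and 133 CPM in controls and 98.8, 118 and 132 in stimulated mice, and the log2 fold change was 0.10 with a standard error of 0.08 (adjusted p = 0.648). The lowest Gabra5 level was that of control 11. Gabrd had 68.8, 86.0 and 109.6 CPM in controls and 67.6, 86.5 and 114 in stimulated mice, and the log2 difference of 0.05 was within its standard error of 0.06 (adjusted p = 0.773).

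The beta subunits did not pass either. Gabrb1 had 118, 165 and 205 CPM in controls and 156, 172 and 198 CPM in stimulated mice. The difference came to 0.08 on the log2 scale, with a standard error of 0.07 (adjusted p = 0.663). The lowest Gabrb1 level was that of control 9. Gabrb2, the beta subunit of many adult cortical receptors, had 51.2, 107 and 196 CPM in controls and 50.3, 123 and 188 CPM in stimulated mice. Its wide spread lay between the sets and not between the groups, and its log2 fold change was -0.05 with a standard error of 0.10 (adjusted p = 0.894).

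**Figure D2:**
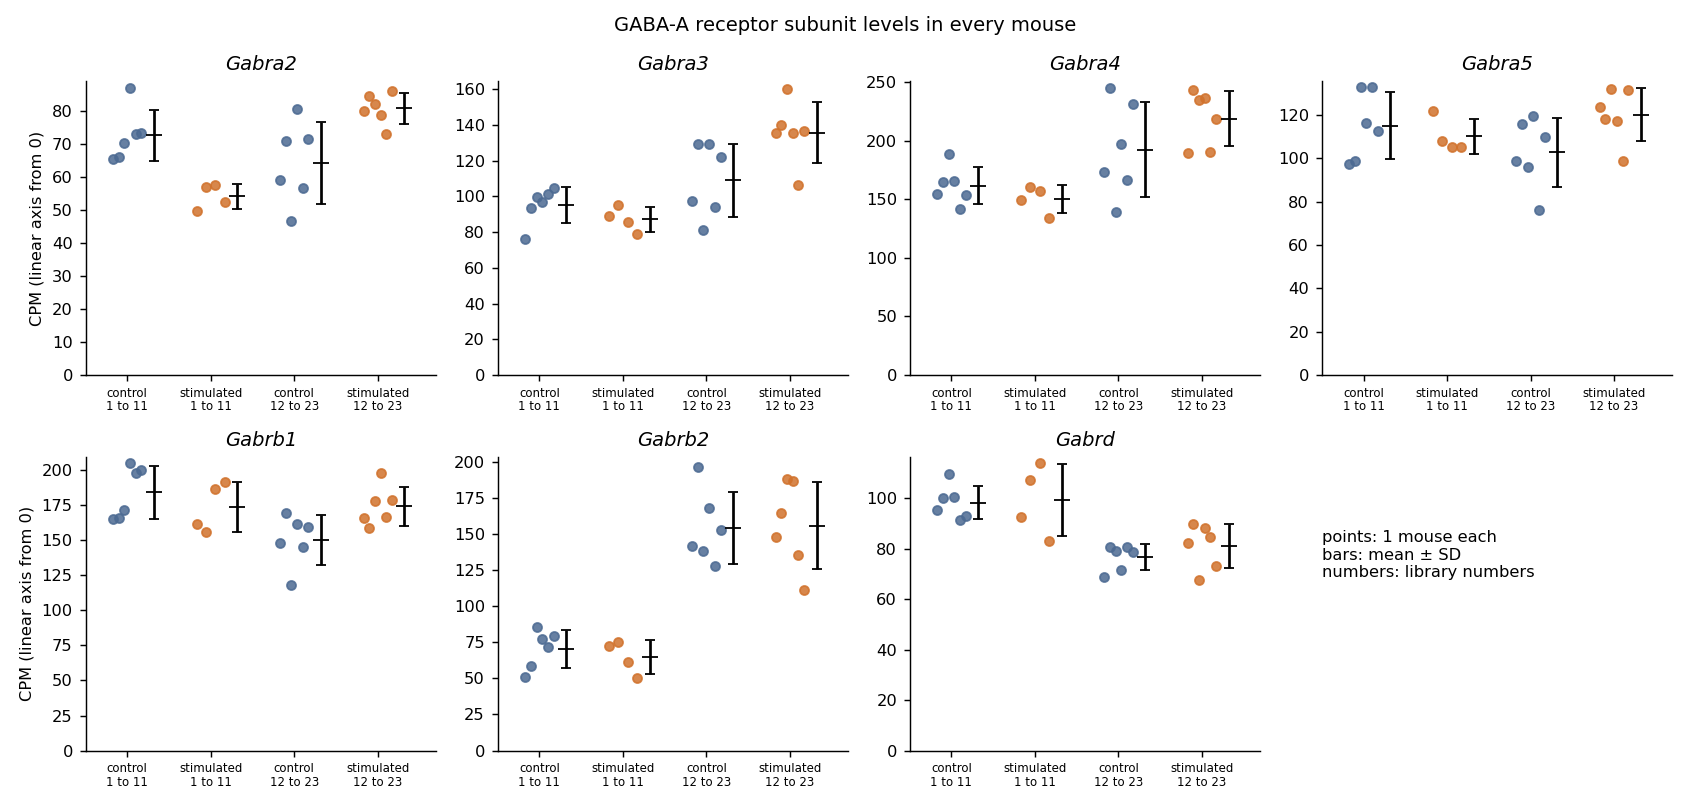
CPM of each subunit (vertical, linear from 0) in every mouse, split by group and by set of library numbers, with 1 point per mouse and the mean ± SD at its right. In the Gabra2 panel the 4 stimulated mice of 1 to 11 lie below all 6 controls of that set, and in the Gabrb2 panel the sets do not overlap.

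Within the sets the Gabra2 values of stimulated mice lay on opposite sides of those of controls, though by edgeR neither difference passed after adjustment. In set 1 to 11 the controls had 65.6, 71.8 and 87.1 CPM (lowest, median, highest), and stimulated mice 1 to 4 had 49.6, 56.9, 57.7 and 52.4. The groups did not overlap there, as was so for 1.29% of all genes. The log2 fold change was -0.41 with a standard error of 0.09, an unadjusted p of 0.000552 and an adjusted p of 0.727 (edgeR quasi-likelihood test over the 15800 genes tested in that set), and DESeq2 put the log2 fold change at -0.42 with an adjusted p of 0.0284. Leaving out each of the 10 mice in turn kept the edgeR value between -0.44 and -0.35, with unadjusted p-values up to 0.00281. In set 12 to 23 the controls had 46.8, 65.1 and 80.7 CPM and stimulated mice 73.1, 81.1 and 86.3. There the stimulated mice were the higher ones, with some overlap, and across the 17524 genes 0.548% did not overlap. The log2 fold change in that set was 0.30 with a standard error of 0.11, an unadjusted p of 0.0127 and an adjusted p of 0.312 (edgeR), and DESeq2 put it at 0.30 with an adjusted p of 0.199. With controls 9 and 11 left out it was 0.17, with an unadjusted p of 0.0807 (edgeR).

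The difference between the 2 log2 fold changes was tested as an interaction of group and set. For Gabra2 it was 0.75 with a standard error of 0.15 and an unadjusted p of 4.13e-05, the smallest of the 17524 genes tested, and an adjusted p of 0.518 (edgeR), so it missed the threshold over all genes. By DESeq2 it was 0.74 with an adjusted p of 0.0492, and by limma voom with sample quality weights 0.73 with an adjusted p of 0.307. When each of the 22 mice was left out in turn the edgeR value stayed between 0.64 and 0.78, with unadjusted p-values up to 0.000349 and adjusted ones from 0.214 to 0.887. Without controls 9 and 11 it was 0.58, with an unadjusted p of 0.000147 and an adjusted p above 0.99 (edgeR).

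Other members leaned the same way with smaller values. The interaction was above 0 in 7 of 7 members and in 57.9% of all genes, the median over all genes being 0.04. An unadjusted p under 0.05 was reached by 3 of 7 members, against 8.01% of all genes, namely Gabra2, Gabra3 (0.45, standard error 0.17, p = 0.0127, adjusted p = 0.558) and Gabrb1 (0.30, standard error 0.13, p = 0.0334, adjusted p = 0.602). Once controls 9 and 11 were left out, only Gabra2 kept a p under 0.05, with Gabra3 at 0.28 (p = 0.0752) and Gabrb1 at 0.17 (p = 0.189). Of all genes 664 of 17333 had an unadjusted p under 0.05 in that fit. The 7 members are not independent, since most of them varied together across mice. Gabrb2 (0.14, standard error 0.21) and Gabrd (0.07, standard error 0.12) had values below their standard errors, and leaving out single mice took both to either side of 0.

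Within set 1 to 11, 6 of 7 members were lower in stimulated mice (48.9% of all genes were), and 1 of 7, Gabra2, had an unadjusted p under 0.05, against 5.86% of all genes. The other log2 fold changes in that set lay between -0.12 (Gabra3) and 0.02 (Gabrd). Within set 12 to 23, 6 of 7 were higher (52.4% of all genes were) and 2 of 7, Gabra2 and Gabra3, had an unadjusted p under 0.05, against 12.5% of all genes. Gabra3 had 81.3, 109.6 and 129 CPM in the controls of that set and 106, 136 and 160.4 in its stimulated mice. On the log2 scale its difference was 0.29, with a standard error of 0.12. Gabrb1 and Gabra5 had log2 fold changes of 0.18 and 0.19 there, and Gabra4 of 0.16. Gabrb2 at -0.02 and Gabrd at 0.05 were close to 0. Without controls 9 and 11, 0 of 7 had an unadjusted p under 0.05 in that set, beside 704 of the 14801 genes tested in that fit. The log2 fold changes were then 0.15 for Gabra3 and 0.10 for Gabrb1.

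**Figure D3:**
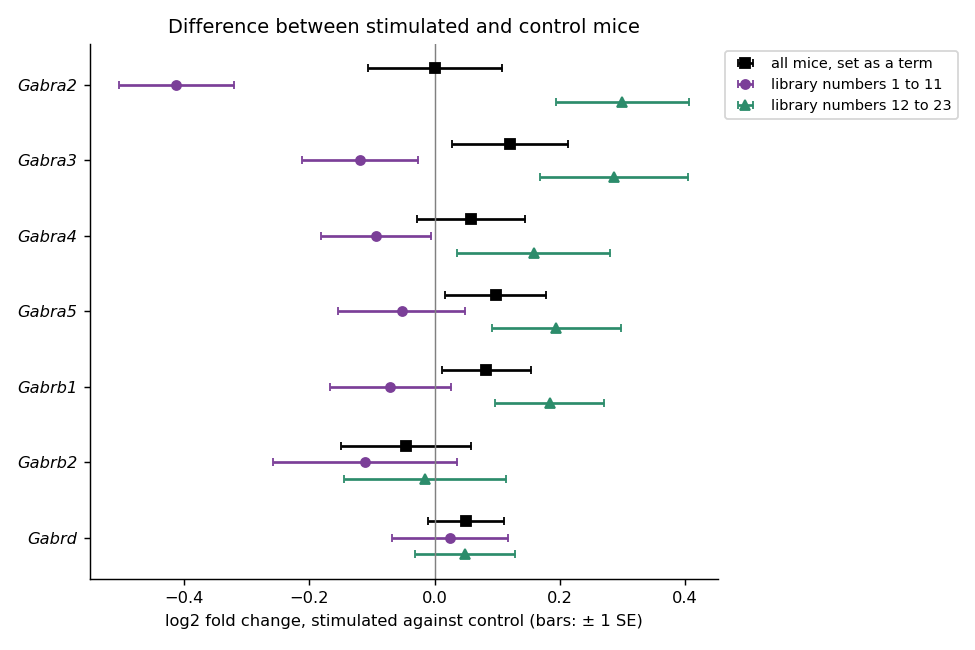
Log2 fold change of stimulated against control mice (horizontal, 0 is no difference) for each subunit, with bars of 1 standard error, over all mice with set as a term and within each set of library numbers (edgeR). Gabra2 is at -0.41 within 1 to 11 and at 0.30 within 12 to 23, and at 0.00 over all mice.

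Cell type markers were read beside the Gabra2 levels. Controls 9 and 11 had the lowest Gabra2 levels of set 12 to 23, 46.8 and 56.6 CPM, and the highest oligodendrocyte marker sums. In that set the 8 oligodendrocyte markers summed to 3554 to 19639 CPM in controls and 2337 to 4539 in stimulated mice, and all 8 were lower in stimulated mice with an unadjusted p under 0.05. The highest sum of the other 4 controls was 5348. The sum of the 3 choroid plexus markers tested was 12.2 to 47.8 CPM in controls of that set and 5.19 to 11.0 in stimulated mice. Those ranges did not overlap, as was so for 0.548% of single genes there. In set 1 to 11 the choroid plexus sums overlapped, at 3.99 to 132 CPM in controls and 10.6 to 17.0 in stimulated mice. In set 12 to 23, 2 of the 3, Ttr (log2 difference -2.30) and Clic6 (-2.19), had an unadjusted p under 0.05, against 12.5% of all genes. So did 2 of 3 markers of oligodendrocyte progenitors, Pdgfra (-0.20) and Vcan (-0.32), and Slc17a7 (0.19) of the excitatory ones. Of the 7 interneuron markers 4 were higher and 3 lower there, and only Pvalb (-0.72) had an unadjusted p under 0.05. In set 1 to 11 the oligodendrocyte sums were 3195 to 6272 CPM in controls and 3370 to 5799 in stimulated mice, so the groups overlapped, and 0 of 8 markers had an unadjusted p under 0.05. The 6 excitatory neuron markers summed to 3163 to 3899 CPM in controls and 3136 to 3717 in stimulated mice of set 1 to 11, and to 4809.9 to 6872 and 5984 to 7802 in set 12 to 23. The 7 interneuron markers summed to 946 to 1333 and 1024 to 1439.9 CPM in set 1 to 11, where 2 of the 7, Slc32a1 and Sst, had an unadjusted p under 0.05, both higher in stimulated mice, and to 781 to 1195 and 869.6 to 1215 in set 12 to 23. All 5 striatal markers were higher in stimulated mice of set 1 to 11, where 1 of 5, Ppp1r1b (0.23), had an unadjusted p under 0.05, and their sums there were 95.6 to 135 CPM in controls and 110.1 to 151 in stimulated mice. Astrocyte marker sums (6 genes) were 2016 to 3903 CPM in controls and 2264 to 2896 in stimulated mice of set 1 to 11, with 0 of 6 at an unadjusted p under 0.05, and 2986 to 4201 and 2343 to 4352 in set 12 to 23, also with 0 of 6. All 6 were lower in stimulated mice in each set (median log2 difference -0.19 and -0.17). Of 4 endothelial markers, 4 were lower in set 1 to 11 (median -0.26), and 2 were lower and 2 higher in set 12 to 23. In either set 0 of these 4 had an unadjusted p under 0.05. Mitochondrial genes took 1.63% to 4.81% of counts in the controls and 1.79% to 2.80% in the stimulated mice of set 1 to 11, and 1.04% to 1.90% and 0.982% to 1.80% in set 12 to 23. The part of these measures in the Gabra2 differences was not tested.

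**Figure D4:**
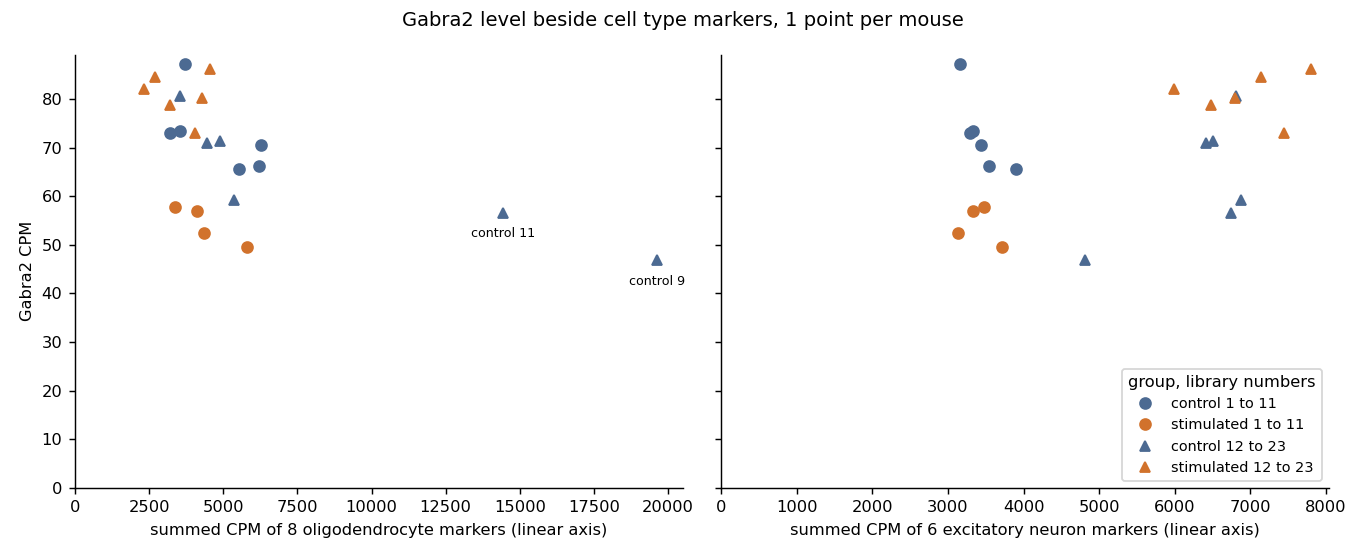
Gabra2 in CPM (vertical, linear from 0) against the summed CPM of 8 oligodendrocyte markers (left) and 6 excitatory neuron markers (right), 1 point per mouse, circles for library numbers 1 to 11 and triangles for 12 to 23. Controls 9 and 11 stand far to the right at the left, whereas the 4 stimulated mice of 1 to 11 have low Gabra2 with oligodendrocyte sums inside the range of their controls and excitatory sums of 3136 to 3717 against 3163 to 3899.

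A ratio within a library does not rest on scaling between libraries. Among the 4 alpha subunits, taken per kilobase of exons, Gabra5 held 36.4% ± 3.91 (SD, n = 22), Gabra4 28.7% ± 2.69, Gabra3 26.2% ± 2.12 and Gabra2 8.66% ± 0.935. Between groups the Gabra2 share was 8.36% ± 0.718 in 10 stimulated mice and 8.92% ± 1.05 in 12 controls. The difference of stimulated from control mice, taken within sets and averaged, was -0.52 percentage points, with p = 0.206 and an adjusted p of 0.528 (two-sided exact permutation test with labels exchanged within sets, adjusted over the 4 shares). The other 3 shares had adjusted p-values of 0.528 to 0.722 in the same exact test. Leaving out controls 9 and 11, the Gabra2 share differed by -0.67 points (exact permutation p = 0.126, adjusted p = 0.503), and the Gabra5 share by 0.76 points in place of 0.39 (exact adjusted p = 0.552). Within set 1 to 11 the Gabra2 share differed by -1.82 points (exact permutation p = 0.0143, adjusted p = 0.0571), and within set 12 to 23 it differed by 0.52 points (exact permutation p = 0.152, adjusted p = 0.303). The Gabra2 share was thus lower along with the Gabra2 level in set 1 to 11 but missed the threshold after adjustment, and the other 3 alpha shares had exact adjusted p-values of 0.581 to 0.919 there.

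The sets differed more than the groups for most members, with Gabrb2 at the head. Gabrb2 was at 50.3 to 85.6 CPM in the 10 mice of set 1 to 11 and at 111 to 196 in the 12 mice of set 12 to 23, without overlap. Such a separation was seen in 26.1% of all genes. The log2 difference of set 12 to 23 against 1 to 11 was 1.19 with a standard error of 0.11 (adjusted p = 2.62e-10, edgeR quasi-likelihood test). Gabra3 and Gabra4 were also higher in set 12 to 23, by 0.39 and 0.38 on the log2 scale, whereas Gabrd was lower, with a log2 difference of -0.33, and so was Gabrb1, at -0.16 (adjusted p = 0.0458). Gabra2 at 0.15 and Gabra5 at -0.04 did not pass. In all 5 of 7 members passed, beside the 68.1% of all genes, so a difference between the sets is no mark of these subunits. On leaving out controls 9 and 11, Gabra2 passed at 0.29 (adjusted p = 0.00624) and Gabrb1 at -0.08 did not (adjusted p = 0.271). Among the 12 controls alone Gabrb1, Gabrb2 and Gabrd passed, beside 9553 of the 15878 genes tested in that fit. The counts of Gabrb2 came to 0.382 ± 0.0765 of those of Gabrb1 in the mice of set 1 to 11 (SD, n = 10) and to 0.961 ± 0.152 in set 12 to 23 (SD, n = 12), so the balance of the 2 beta subunits within a library moved too. The set stands for whatever differed between the libraries numbered 1 to 11 and 12 to 23, and batch, tissue and time cannot be told apart in it.

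Across mice most members varied together, Gabrd least. On log2 CPM centred within group and set, 17 of the 21 pairs had a positive Pearson correlation over 22 mice (median 0.46). The highest were those of Gabra3 with Gabra2 (0.78), Gabra5 (0.74) and Gabra4 (0.73). The 4 negative pairs were those of Gabrd with Gabra5 (-0.22), Gabrb1 (-0.21), Gabra3 (-0.08) and Gabra2, the last barely below 0. Without controls 9 and 11 the median was 0.32 and 19 of 21 pairs were positive, with Gabra2 and Gabra4 moving from 0.66 to 0.35. The pair of Gabrd and Gabra4 moved from 0.29 to 0.53, so that Gabrd stood apart from Gabra4 with these libraries included but not without them, while its other 5 pairs lay between -0.16 and 0.32. All mice share the library preparation and the 7 genes share each library's depth and tissue makeup, so these are descriptions without a test.

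**Figure D5:**
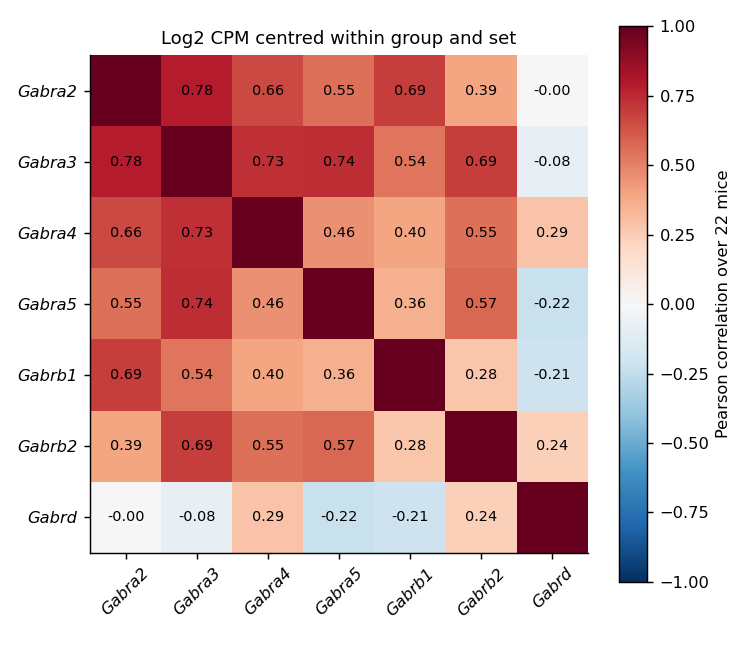
Pearson correlation of log2 CPM between each pair of subunits over 22 mice, after centring within group and set, from -1 (blue) to 1 (red). Gabra3 is high with Gabra2, Gabra4, Gabra5 and Gabrb2, and the row of Gabrd runs from -0.22 to 0.29.

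The genes whose levels followed each member most closely were found among all genes past the count minimum by the same centred correlation over 22 mice, again as a description, and with controls 9 and 11 included. For Gabra2 they included Kcnb2 (0.88), a voltage-gated potassium channel subunit, and Pcdh8 (0.85), a protocadherin. For Gabra3 they were Dpp10 (0.92), an auxiliary subunit of potassium channels, Rab27b (0.91) and Sdcbp (0.90), and for Gabra4 Flrt3 (0.92), a cell adhesion protein, Klhl23 (0.88) and the AMPA receptor subunit gene Gria4 (0.88). Gabra5 went with Cd200 (0.86), Tram1l1 (0.84) and Gpr85 (0.84). Gabrb1 went with Ntrk3 (0.88), the neurotrophin-3 receptor, Pcdh19 (0.87) and Tenm4 (0.85), and Gabrb2 with Arfgef1 (0.90), Nckap1 (0.89) and Ranbp6 (0.89). Gabrd went with Lamp5 (0.88), a marker of a class of interneurons in superficial layers that is also made by some pyramidal neurons, Cbln4 (0.87), a secreted synaptic protein, and Ntm (0.86).

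Around the receptor, 4 lists of related genes were read for the difference between groups. Of 12 other GABA-A subunit genes 7 were tested, with 3 higher and 4 lower in stimulated mice. Only Gabrr2, a rho subunit found mainly in retina, had an unadjusted p under 0.05, at -1.19 on the log2 scale with a standard error of 0.44, on levels of 0.0518 to 3.08 CPM that were highest in control 9. Of 21 genes for assembly, traffic and anchoring of the receptor, 11 were higher and 10 lower (median 0.01), and 5 had an unadjusted p under 0.05. Nlgn2, the neuroligin of inhibitory synapses, was higher by 0.28 (standard error 0.08), as were Gabarapl1 (0.19) and Gabarap (0.15), which bind the receptor and serve in membrane traffic. Dmd, whose product dystrophin sits at inhibitory synapses, was at -0.21 (standard error 0.06), and Trak2, a motor adaptor, at -0.17. Of the 5 GABA-B receptor genes and partners 0 had an unadjusted p under 0.05. Among 9 genes for GABA synthesis, uptake and chloride transport, Slc32a1, the vesicular GABA transporter, was at 0.31 (standard error 0.10) and Slc12a2, a chloride importer, at -0.38 (standard error 0.14), and the other 7 were not under 0.05. Within sets 1 to 11 and 12 to 23 the log2 difference was 0.35 and 0.21 for Nlgn2, -0.14 and -0.29 for Dmd, -0.06 and -0.27 for Trak2, and -0.06 and -0.66 for Slc12a2. Over all mice the 8 oligodendrocyte markers were all lower too, each at an unadjusted p under 0.05 (median -0.69), as were 2 of 3 choroid plexus markers. Values of the listed genes without controls 9 and 11 are not given here. Whether these genes go with the markers was not tested. In these 4 lists 0 genes had an adjusted p under 0.05, the smallest being 0.313 (Nlgn2 and Dmd, edgeR quasi-likelihood test), beside the 11.5% of all genes with an unadjusted p under 0.05. For the interaction of group and set, 3 of the 7 other subunits tested and 2 of the 21 trafficking genes had an unadjusted p under 0.05, each above 0, as 0 of 5 and 1 of 9 (below 0) did in the remaining lists. Over all genes 8.01% had such a p for the interaction, and 57.9% of all genes had a value above 0.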

How the data were processed

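Bulk RNA from the dissected ACC of 22 mice was made into full-length cDNA libraries (SMART-Seq v4 with Nextera XT tagmentation, which does not mark strand) by the authors. According to the methods and the submitters' processing notes, reads were trimmed with cutadapt 1.10, aligned to mm10 with STAR 2.5.3a and counted per gene with HTSeq 0.6.1p1. The strand setting of the counting is not given in the sources used here. The deposited table holds raw counts per gene and mouse. The deposited normalised values, a signal scaled with DESeq2 1.22.1 by the authors, and the columns of the authors' own comparison (log2 fold change, p-value, adjusted p-value) were not used. All columns of counts were mapped to a mouse by name.

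The members and lists were chosen with earlier results of these data known. The 17524 genes that reached 10 counts in 10 or more mice were tested with edgeR 4.0.16 (R 4.3.3) by quasi-likelihood with TMM scaling, with group and set as terms, an interaction in a fit of its own, and separate fits within sets, for which the count minimum was applied again. A design with set is used because the preparation quality (RIN) and batch covariates of the study are not in the labels. P-values were adjusted by Benjamini-Hochberg over all genes tested. CPM are TMM-scaled, and fold changes are on the log2 scale. Levels per length used the GENCODE M21 annotation, in which 37772 of the 37786 IDs were found. Alternatives used DESeq2 1.42.0, limma 3.58.1 and sva 3.50.0, and shares were tested by exact permutation with scipy 1.17.1. The fits of group and of interaction over all mice were tried on simulated counts, with changes larger than any member showed in those contrasts. The fits within sets were not simulated. How well small differences are found was therefore not tested. Members had 1478 to 7950 counts per mouse, so counting error was small beside the spread between mice. Reads carried no molecular identifiers, so counts are of reads. All 7 members are named, with up to 3 genes most correlated with each, and listed genes with an unadjusted p under 0.05. Some genes that this rule takes in are not reported here. Promoter sequence was found for 6 of the 7 members, Gabrd being the other.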

Additional observations from a re-analysis of the deposited data

Results flagged for a closer look

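The group difference of 3 members differed between the sets of library numbers at an unadjusted p under 0.05 (edgeR, interaction of group and set), as did 8.01% of all genes. The values, set 12 to 23 minus set 1 to 11 on the log2 scale, were 0.75 for Gabra2, 0.45 for Gabra3 and 0.30 for Gabrb1, and 0 of the 3 passed after adjustment over all genes. Without controls 9 and 11 they were 0.58, 0.28 and 0.17, with 1 of the 3 and 664 of 17333 genes under an unadjusted 0.05.

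Among the 6 controls of set 1 to 11, control 1 lay far below the others for Gabra3, at 76.1 CPM against 93.3 to 104.9, a gap that on the log2 scale was 0.637 of the whole range. It was the only 1 of 35 groups of 4 to 10 values so marked, where chance alone marks about 1 in 20.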

How the results depend on the processing

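For stimulated against control mice, 2015 genes had an unadjusted p under 0.05, against 632 with group alone, 3687 with no count minimum, 1292 with the replicate block and no set, 926 within set 1 to 11, 1339 without controls 9 and 11, and 1507 to 2415 when single mice were left out. At an adjusted p the 0 genes of edgeR became 33 by DESeq2, 1 by limma voom, 1 without controls 9 and 11 and 0 to 1 with single mice left out. Members higher were 1 within set 1 to 11 and 4 to 6 with single mice left out. Members under an unadjusted 0.05 were 1 within set 1 to 11 and 2 within 12 to 23. The Gabra2 log2 difference, 0.00, changed sign with limma voom (-0.023), a minimum in every mouse (-0.011), a surrogate variable (-0.0050), the replicate block without set (-0.0062) and with it (-0.034), in set 1 to 11 (-0.41), without controls 9 and 11 (-0.13) and with single mice left out (-0.072 to 0.042). Within set 1 to 11 Gabra3 (-0.12), Gabra4 (-0.094), Gabra5 (-0.052) and Gabrb1 (-0.071) changed sign too. Gabra4 did so without controls 9 and 11 (-0.039) and with single mice left out (-0.00048 to 0.081), Gabrb2 with group alone (0.088) and with the replicate block (0.15), and Gabrd with that block (-0.024). The replicate numbers 1 to 10 are shared between groups. Same-numbered mice correlated by 0.0511 on average after centring within group and set, and not all by over 0.1. After centring within group only the average was 0.308. These averages have no test beside them and cannot show whether the mice were paired. The main fit did not use the numbers as pairs. The block changed no other call.

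For the interaction, DESeq2 called 2 genes and 1 member after adjustment. Genes at an unadjusted p under 0.05 numbered 664 without controls 9 and 11, with 1 member, and 961 to 1664 with single mice left out, with 2 to 4 members and 5 to 7 of them above 0. There Gabrb2 ran from -0.010 to 0.18 and Gabrd from -0.060 to 0.12. Within set 1 to 11, DESeq2 called 17 genes and 1 member, and leaving out single mice gave 665 to 1146 genes and 1 to 2 members under an unadjusted 0.05, 0 to 1 members higher and Gabrd at -0.049 to 0.097. Within set 12 to 23, DESeq2 called 46 genes, leaving out single mice gave 1229 to 2589 genes and 1 to 3 members, 0 to 43 genes after adjustment and Gabrb2 at -0.089 to 0.056, and without controls 9 and 11 there were 704 genes and 0 members. Between the sets, 3 members passed among controls alone, with Gabra2 at -0.21, and Gabra5 was at 0.057 without controls 9 and 11. Of the 7 ranks per length, 3 changed with the longest transcript and 6 with the coding length. Where a value changed, the cause was not tested. The fits with single mice left out for the interaction and within sets, the DESeq2 fits within sets, and the fits within set 12 to 23 and between sets, the shares and the correlations without controls 9 and 11 were added after the data were seen.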

Other observations

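Slc32a1, the vesicular GABA transporter of interneurons, had a log2 difference of stimulated from control mice of 0.54 (standard error 0.15) in set 1 to 11 and of 0.11 (standard error 0.12) in set 12 to 23, and Sst, the peptide of a class of interneurons that target dendrites, of 0.37 (standard error 0.15) and 0.11 (standard error 0.14). Neither passed after adjustment over all genes (edgeR adjusted p of 0.761 to 0.815). They were the 2 of 7 interneuron markers under an unadjusted 0.05 in set 1 to 11, where 5.86% of all genes were. There 6 of the 7 were higher in stimulated mice and 1 lower. The difference between the sets was -0.39 (standard error 0.19) for Slc32a1 and -0.22 (standard error 0.22) for Sst, with unadjusted p-values of 0.0568 and 0.324 (edgeR, interaction of group and set), so neither was shown to differ between them. Of the same markers, Pvalb was at -0.93 (standard error 0.39, p = 0.0235) and Vip at 0.39 (standard error 0.15, p = 0.0164) by this test, in opposite directions. Their adjusted p-values were 0.581 and 0.568, and 8.01% of all genes had an unadjusted p under 0.05. Gad1 was at -0.03 and Gad2 at 0.02. Whether these values go with those of Gabra2 was not tested.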
